A study of Mus musculus with 8 samples.

Results

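The axis from natural killer (NK) cells to type 1 conventional dendritic cells (cDC1s) was followed through 6 genes of the 24787 in the count tables. They were the chemokine gene Xcl1, its receptor gene Xcr1, the cytokine gene Flt3l, its receptor gene Flt3, and the cDC1 genes Clec9a and Batf3. They were chosen by function and by a measured value, the level of Xcl1 in NK cells of the same tumors, which was lower after treatment. Values of the 6 genes in NK cells are therefore given below as a description, with no test. Tests are given for T cells and dendritic cells (DCs).

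The study dosed mice bearing MC38 tumors, a transplantable colon carcinoma line of C57BL/6 origin, and profiled the tumors 24 hours later on Seq-Well arrays. Per the methods, the mice were 8-week-old female C57BL/6J animals. Saline was given to 3 mice, free R848 to 3 and medium R848-BPD to 2. R848 (resiquimod) is a small-molecule agonist of the endosomal RNA sensors TLR7 and TLR8, and medium R848-BPD is a bottlebrush polymer prodrug that releases R848 through a linker of medium cleavage rate. All tumors were digested, split on CD45 beads and loaded at 9 CD45+ cells for each CD45- cell, so the balance of immune and other cells was set at loading. Each tumor came from 1 mouse.

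In this axis, NK cells and some T cells secrete XCL1, which attracts dendritic cells that carry the receptor XCR1. XCR1 is largely restricted to cDC1s, which depend on the transcription factor BATF3, take up dead cell material through the receptor CLEC9A and present its antigens to CD8+ T cells. FLT3 ligand, which NK cells and T cells also make, supports the development and survival of dendritic cells through the receptor FLT3.

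All 6 genes are protein coding, and their positions are those of GRCm38 in the GENCODE vM21 annotation. Xcl1 lies at chr1:164931644-164935527 on the minus strand, and Batf3 at chr1:191097847-191108945 on the plus strand. Xcr1 lies at chr9:123852315-123862029 and Flt3l at chr7:45129788-45136432, both on the minus strand. Flt3 lies at chr5:147330741-147400489 on the minus strand, and Clec9a at chr6:129408862-129424763 on the plus strand.

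The promoters of Xcl1, Xcr1 and Clec9a are shown because these 3 members had their lowest mean in the medium R848-BPD tumors in the class where each was most often detected (NK-like for Xcl1, DC-like for the others). Each sequence is the 250 bases before the RefSeq start in GRCm38.p6, on the strand of the gene, at chr1:164935523-164935772 for Xcl1, chr9:123862030-123862279 for Xcr1 and chr6:129408612-129408861 for Clec9a. Both strands were searched for the NFAT core GGAAA, the nuclear receptor element AAAGGTCA that NR4A proteins bind, the AP-1 element TGANTCA and an interferon response core. Capitals mark the matches.
Xcl1: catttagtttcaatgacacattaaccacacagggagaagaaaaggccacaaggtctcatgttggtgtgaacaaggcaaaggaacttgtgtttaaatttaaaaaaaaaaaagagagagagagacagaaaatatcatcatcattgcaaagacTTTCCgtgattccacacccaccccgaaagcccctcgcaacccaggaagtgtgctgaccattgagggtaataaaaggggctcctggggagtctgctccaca
Xcr1: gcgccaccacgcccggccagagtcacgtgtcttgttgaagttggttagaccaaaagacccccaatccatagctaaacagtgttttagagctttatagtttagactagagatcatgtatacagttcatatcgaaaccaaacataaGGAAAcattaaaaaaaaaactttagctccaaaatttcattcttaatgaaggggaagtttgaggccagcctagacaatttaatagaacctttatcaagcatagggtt
Clec9a: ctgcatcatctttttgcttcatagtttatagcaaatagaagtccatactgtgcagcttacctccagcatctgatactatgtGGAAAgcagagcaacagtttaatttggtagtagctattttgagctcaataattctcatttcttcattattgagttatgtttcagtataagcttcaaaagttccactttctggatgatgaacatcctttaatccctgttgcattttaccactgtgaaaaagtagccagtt
Each of the 3 windows held 1 match, to the NFAT core. It lay 100 to 96 bases before the start in Xcl1, 106 to 102 in Xcr1 and 169 to 165 in Clec9a. Of 32851 promoter windows of this length, 55.6% held the NFAT core, 1.34% the NR4A element, 6.75% the AP-1 element and 2.98% the interferon response core. A match is a run of letters and says nothing of binding.

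Of 10791 barcodes, 9886 passed the limits on genes, UMIs (unique molecular identifiers, which count captured RNA molecules) and mitochondrial share. Total counts ranged from 5867590 to 12422614 UMIs per tumor, and median counts from 3247 to 6928 UMIs per kept cell, the lowest in saline replicate 3. Clustering gave 981 NK-like, 693 T-like and 632 DC-like cells among 7873 nonmalignant cells, named from markers that left out the 6 members. Kept cells of any pair of tumors shared 4 to 9 barcodes, and 11 barcodes occurred in more than 1 tumor. Leaving those barcodes out moved none of the Xcl1, Xcr1, Clec9a or Batf3 differences given below at 2 decimals. The NK marker list (12 genes) summed to 5544 to 7519 counts per 1e6 UMIs (CPM) of the NK-like class after saline, 8415 to 9892 after free R848 and 12498 to 17369 after medium R848-BPD. One NK-like sub-cluster of 49 cells and 2 T-like sub-clusters of 226 cells were led by genes of macrophages or mature dendritic cells, and values without them are given beside the results. Macrophage markers in the T-like class summed to 4215 to 14126 CPM after saline, 2028 to 4800 after free R848 and 2722 to 5458 after medium R848-BPD. In the NK-like class the same list gave 419 to 1655, 83.2 to 623 and 97.6 to 378 CPM.

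Xcl1 was found in lymphocytes and nearly absent elsewhere. A UMI of Xcl1 was present in 46.4% of NK-like cells and 31.0% of T-like cells. The share was 0.949% in DC-like cells, 0.515% in monocyte/macrophage-like cells and 0.974% in MC38-like cells. The last class was deeper than the NK-like class, with a median of 10935 to 12867 UMIs per cell by treatment against 5158.5 to 7013.

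In NK-like cells, Xcl1 was high after saline, somewhat lower after free R848 and low after medium R848-BPD. The level after saline was 838 CPM in replicate 1, 721 in replicate 2 and 396 in replicate 3. After free R848 it was 294, 487 and 418 CPM. After medium R848-BPD it was 66.6 CPM in replicate 1 (124 UMIs in 207 cells) and 46.7 CPM in replicate 2 (11 UMIs in 44 cells). Saline replicate 3, the shallowest tumor, lay among the free R848 tumors, whereas both medium R848-BPD tumors lay below all 6 others. Means were 651 ± 229 CPM (SD, n = 3), 400 ± 97.9 CPM (n = 3) and 56.7 ± 14.1 CPM (n = 2). The fitted log2 difference from saline was -0.71 (SE 0.22) for free R848 and -3.40 (SE 0.32) for medium R848-BPD. Between the treatments it was -2.68 (SE 0.32). Without the sub-cluster led by macrophage genes the medium R848-BPD difference from saline was -3.41.

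**Figure D1:**
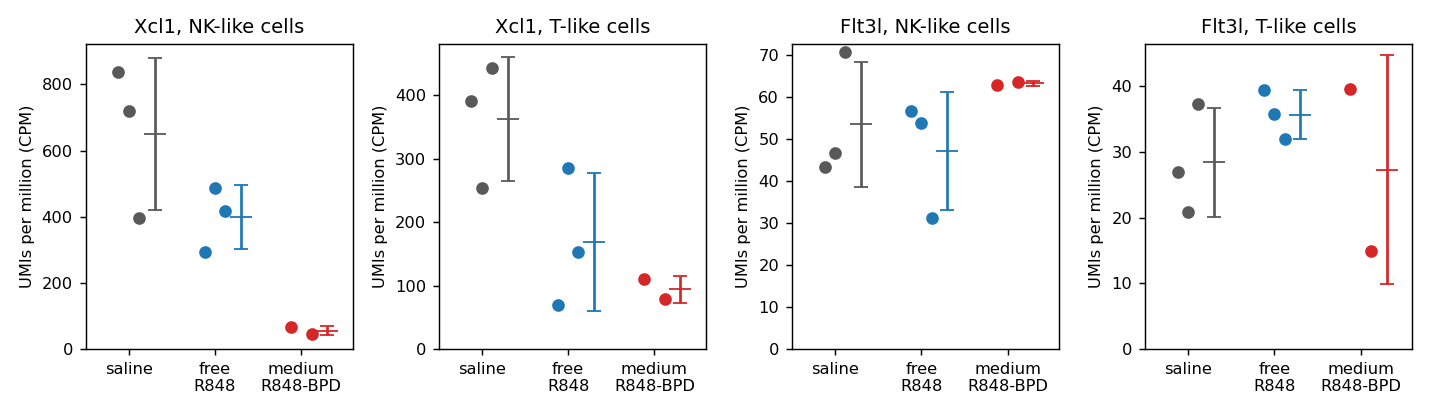
Xcl1 and Flt3l levels in CPM (y axis) in NK-like and T-like cells of each tumor (points) by treatment (x axis), with mean and SD beside them. Xcl1 in NK-like cells was 66.6 and 46.7 CPM in the medium R848-BPD tumors and at least 294 CPM in each of the others, while the Flt3l points of NK-like cells lay between 31.2 and 70.7 CPM.

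The number of NK-like cells with Xcl1 moved in the same way as its level. With every cell thinned to 1000 UMIs, a UMI of Xcl1 was found in 35.9% ± 6.37 of NK-like cells after saline (SD, n = 3), 27.8% ± 6.74 after free R848 (n = 3) and 2.42% ± 3.42 after medium R848-BPD (n = 2). Thinning left out 1 NK-like cell of a saline tumor and none of the other groups. Without thinning the means were 62.5%, 49.4% and 15.4%. Monocyte/macrophage-like cells gave thinned means of 0.045%, 0.045% and 0%, the last from 0 of 1191 cells.

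Every NK-like sub-cluster had its lowest pooled Xcl1 level after medium R848-BPD. The sub-cluster led by Gzmg and Gzmf, genes of late granzymes, had 190 CPM after saline (95% Poisson interval 156 to 230), 64.8 after free R848 (42.4 to 94.99) and no UMI in 20 cells after medium R848-BPD (upper bound 29.5). A sub-cluster led by Cd2 and Gimap3 went from 1038 CPM (923 to 1163) through 627 (536 to 729) to 65.0 (23.9 to 142). In the sub-cluster of mitotic genes such as Plk1 and Ccnb1, the pooled levels were 993, 529 and 41.6 CPM. Sub-cluster 5, which held 109 of the 251 medium R848-BPD NK-like cells and 8 of the 454 saline cells, gave 470, 149 and 62.2 CPM. These intervals cover counting error only, and cells of 1 tumor are not replicates.

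**Figure D2:**
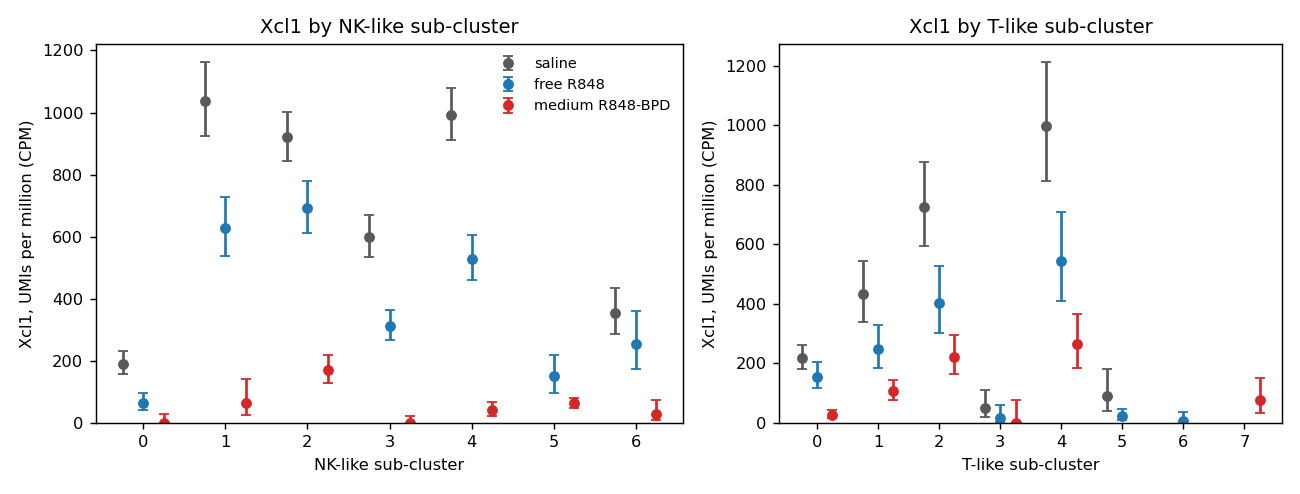
Pooled Xcl1 level in CPM (y axis) in each NK-like (left) and T-like (right) sub-cluster (x axis) by treatment, with 95% Poisson intervals that cover counting error only; groups with fewer than 10 cells are not drawn. In the NK-like sub-clusters the medium R848-BPD values ran from 0 to 169 CPM, below the saline value wherever both are drawn.

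T-like cells had a lower mean Xcl1 level than NK-like cells after saline and free R848, but not after medium R848-BPD (94.9 against 56.7 CPM), and no difference was called with the filter on low counts in edgeR. Replicates 1 to 3 had 391, 255 and 444 CPM after saline and 69.1, 285 and 153 CPM after free R848. The medium R848-BPD tumors had 110 and 79.9 CPM. Both lay below the 3 saline tumors and overlapped with the free R848 tumors. The log2 difference was -1.14 (SE 0.39, adjusted p = 0.818) for free R848 against saline and -1.90 (SE 0.46, adjusted p = 0.228) for medium R848-BPD against saline with edgeR's quasi-likelihood test over 7458 genes and Benjamini-Hochberg adjustment. Between the treatments it was -0.76 (SE 0.46, edgeR adjusted p = 0.770). The call against saline for medium R848-BPD depended on the tool, since DESeq2 gave an adjusted p of 0.00738, and on the filter, since edgeR without the filter on low counts gave 8.15e-10. Without that filter free R848 against saline was called too (-1.13, edgeR adjusted p = 0.000222). Without the sub-clusters led by other cell types the difference of medium R848-BPD from saline was -1.52 (edgeR adjusted p = 0.561), with 519, 329 and 493 CPM after saline, 85.9, 321 and 165 after free R848, and 148 and 186 after medium R848-BPD. Other markers of the whole T-like class differed beside these values. The 12 NK markers summed to 1486 to 1928 CPM after saline, 948 to 1981 after free R848 and 2727 to 3786 after medium R848-BPD, and the 14 T markers to 3485 to 4298, 3456 to 7414 and 2156 to 3460 CPM. The 5 B cell markers summed to 92.9 to 205 CPM after saline and 61.3 to 145 after free R848, with 97.8 and 1350 CPM in the medium R848-BPD tumors. Their part in the T-like results was not tested.

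Within the T-like class, the Xcl1 level was higher in cells without a Cd8 UMI than in cells with one. Among T-like cells outside those sub-clusters, the 225 with a UMI of Cd8a or Cd8b1 had 236, 89.6 and 380 CPM in the saline tumors, and the 242 without one had 651, 779 and 563 CPM. In each of the 8 tumors the cells without a Cd8 UMI were the higher ones. After saline, pooled and without thinning, an Xcl1 UMI was present in 40.6% of cells with a Cd8 UMI and 46.6% without one. A cell without a Cd8 UMI can still express Cd8, and whether these cells were T cells was not tested. The class also held NK markers, as given above. A sub-cluster led by replication genes such as Ung and Gins1 had a pooled level of 998 CPM after saline (95% Poisson interval 812 to 1213), and a sub-cluster led by Cd7 and Klra6 had 726 CPM (595 to 876). The sub-cluster led by Foxp3 and Cd4, genes of regulatory T cells, had 51.4 CPM (18.9 to 112). The replication sub-cluster gave 544 CPM after free R848 and 264 after medium R848-BPD.

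Genes whose pattern was most like that of Xcl1 included other lymphocyte genes. Over 15 means, from 5 cell classes and 3 treatments, Cd96 (Pearson r = 0.98), Ctsw (0.97), Tnfsf11 (0.97) and Zap70 (0.97) were among the nearest of 7210 genes. These 15 points share libraries and classes, so the values are a description. In NK-like cells Ctsw, which encodes the protease cathepsin W, averaged 626 CPM after saline, 590 after free R848 and 473 after medium R848-BPD. Zap70, a kinase of receptor signalling, averaged 192, 217 and 202 CPM.

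Flt3l, the other ligand, lay close together in the 3 groups. In NK-like cells its level was 43.3, 46.6 and 70.7 CPM in the saline tumors, 56.7, 53.8 and 31.2 CPM after free R848, and 62.9 and 63.7 CPM after medium R848-BPD. The 3 groups overlapped in part, and the fitted log2 differences from saline were -0.12 (SE 0.25) and 0.25 (SE 0.28). In T-like cells, Flt3l was 26.9, 20.9 and 37.3 CPM after saline, 39.3, 35.6 and 31.9 after free R848, and 39.5 and 14.97 after medium R848-BPD. No Flt3l comparison in T-like cells was called, with edgeR adjusted p from 0.931 to 0.999. Flt3l was detected in 29.1% of NK-like cells, 16.3% of T-like cells, 6.03% of MC38-like cells, 2.80% of monocyte/macrophage-like cells and 2.69% of DC-like cells without thinning.

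Other genes that go with Xcl1 in NK cells were taken from lists of related function. Against saline, whose NK-like contrasts were used in selecting the members, edgeR called 0.588% of 8504 genes higher and 0.317% lower after medium R848-BPD, and nothing is read from the counts of lists there. Of 15 activation-induced genes tested, the orphan nuclear receptors Nr4a1, Nr4a2 and Nr4a3 were among the lower ones. Nr4a1 had 121, 230 and 197 CPM in the saline tumors, 106, 129 and 148 after free R848, and 71.5 and 97.6 after medium R848-BPD. Group means were 221 CPM after saline and 98.8 after medium R848-BPD for Nr4a2, and 338 and 148 for Nr4a3. Id2, a transcriptional regulator that NK cells need, had means of 337 and 585 CPM.

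After free R848 against saline, edgeR called 0% of genes higher and 0% lower in NK-like cells, with 373 of 8504 genes at an unadjusted p under 0.05. DESeq2 also called 0 genes, with 122 under that unadjusted threshold.

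Between the treatments, medium R848-BPD against free R848, 0.223% of genes were called higher and 0.047% lower in NK-like cells. Tcf7, which encodes a factor of early-stage NK cells, fell by 1.31 on the log2 scale (SE 0.27, edgeR adjusted p = 0.0426). Its level was 65.1, 60.8 and 58.2 CPM after free R848 and 22.6 and 34.0 CPM after medium R848-BPD. The saline tumors, which are not in that comparison, had 67.3, 67.8 and 76.9 CPM. The call ended without medium R848-BPD replicate 1 (-0.87, edgeR adjusted p = 0.472), without medium R848-BPD replicate 2, any free R848 tumor or saline replicate 1 (adjusted p from 0.0517 to 0.133), and with DESeq2 (adjusted p = 0.153). Over all 18 alternatives this call was kept in 9. Tcf7 was the 1 called gene of 8 tested on the list of early-stage and tissue-resident NK genes, whose median log2 difference was 0.31 against -0.01 over all genes. None of 4 late-stage NK genes (median -0.08), 15 activation-induced genes (median 0.06) or 8 lymphocyte signals to dendritic cells (median 0.42) was called in that comparison.

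In T-like cells, the signals to dendritic cells were represented by 1 called gene. Ccl5, a chemokine that attracts dendritic cells and other leukocytes, rose by 2.10 on the log2 scale after medium R848-BPD against saline (SE 0.22, edgeR adjusted p = 0.00234) and by 1.55 against free R848 (SE 0.22, adjusted p = 0.0283). Its level was 257, 274 and 257 CPM after saline, 347, 520 and 323 after free R848, and 989 and 1253 after medium R848-BPD. Without the 2 sub-clusters led by macrophage and mature DC genes the sign turned, to -0.52 against saline (edgeR adjusted p = 0.937) and -0.11 against free R848 (adjusted p = 0.999). The call between the treatments also ended when any 1 of 5 tumors was left out (replicates 1 and 3 of free R848 and of saline, and replicate 2 of medium R848-BPD), with adjusted p from 0.0550 to 0.311. It ended as well in a fit of the 2 treatments alone (edgeR adjusted p = 0.123), without predicted doublets (adjusted p = 0.0527) and with classes drawn from all variable genes (adjusted p = 0.112), so that 9 of 18 alternatives kept it. The other 8 genes tested on this list were not called, among 0.0402% of 7458 genes called higher and 0% called lower against saline, and 0.067% and 0.0134% between the treatments. Free R848 against saline gave 0% higher and 0% lower, with 415 genes at an unadjusted p under 0.05 and 8 genes called by DESeq2.

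On the receiving side, Xcr1 and Clec9a were most often detected in a small group of dendritic cells. Sub-clustering of the DC-like cells without the members and list genes gave a cDC1-like cluster of 74 cells. The 12 cDC1 markers found in the files were detected there in 0% (Xlr) to 98.7% (Wdfy4) of cells, with Naaa at 89.2%, Itgae at 77.0%, Cadm1 at 36.5%, Tlr11 at 10.8% and Cxx1b at 4.05%. Some were not particular to the cluster, since Wdfy4 and Naaa were in 60.6% and 84.9% of the 33 cells of the unnamed sub-cluster 7, where Itgae was in 3.03%. Xcr1 had a UMI in 48.6% of these cells, Clec9a in 60.8% and Flt3 in 81.1%. NK-like cells held 0 UMIs of Xcr1 and of Clec9a in 981 cells, which allows up to 0.306% of cells with a UMI. In cDC2-like cells, Xcr1 had a UMI in 0 of 117 cells, which allows up to 2.56%, and Clec9a in 4.27%. Among the few pDC-like cells, Clec9a had a UMI in 4 of 12 after saline (147 CPM pooled, 95% Poisson interval 53.99 to 320), 2 of 6 after free R848 and 0 of 7 after medium R848-BPD, and Xcr1 in 1 of the 12 saline cells. These limits are on cells with a UMI at this depth, not on cells that express the gene. Monocyte/macrophage-like cells had shares of 1.11% for Xcr1 and 0.916% for Clec9a.

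**Figure D3:**
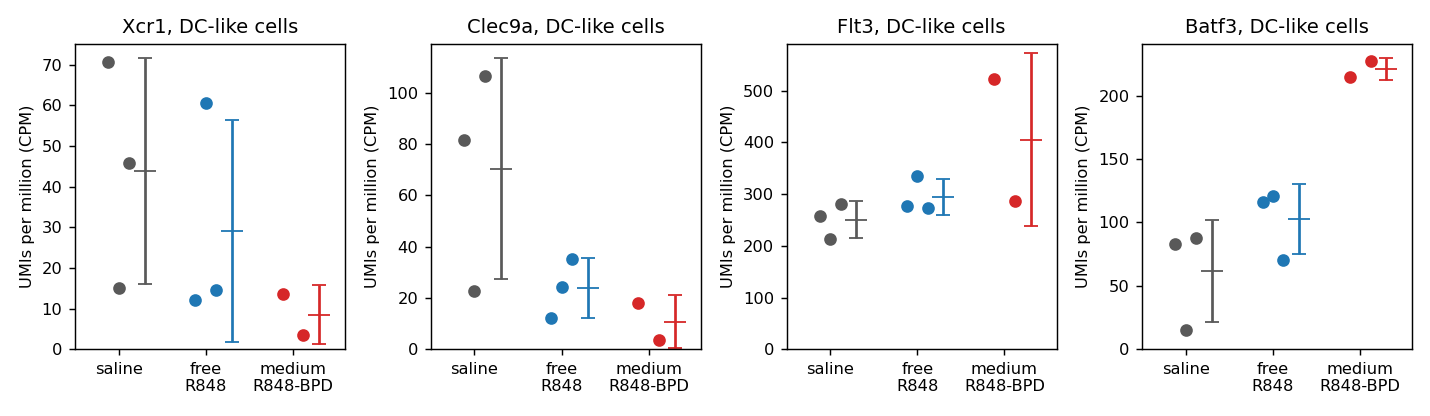
Xcr1, Clec9a, Flt3 and Batf3 in CPM (y axis) in DC-like cells of each tumor (points) by treatment (x axis), with mean and SD beside them. Clec9a was at most 18.1 CPM in the medium R848-BPD tumors and at least 22.8 CPM in the saline tumors, and Batf3 was at least 215 CPM against at most 87.6.

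Over the DC-like class as a whole, Xcr1 and Clec9a fell after medium R848-BPD against saline, a comparison in which edgeR called 8.56% of 5605 genes higher and 7.14% lower. Xcr1 was at 70.6, 15.2 and 45.7 CPM in the saline tumors, 12.05, 60.5 and 14.7 after free R848, and 13.6 and 3.50 after medium R848-BPD. Both medium R848-BPD values lay below the saline values, though replicate 1 was close to saline replicate 2, which had only 2 UMIs of Xcr1 in 25 cells. The log2 difference from saline was -2.30 (SE 0.70, edgeR adjusted p = 0.0374). It rests on single tumors, since leaving out saline replicate 1, saline replicate 3 or either medium R848-BPD tumor ended the call. The difference was then -1.75 (edgeR adjusted p = 0.299) and -2.38 (adjusted p = 0.0663) without saline replicates 1 and 3, and -3.74 (adjusted p = 0.111) and -1.92 (adjusted p = 0.153) without medium R848-BPD replicates 1 and 2. DESeq2 gave an adjusted p of 0.0752, and 11 of 17 alternatives kept the call. Free R848 differed from saline by -0.76 (SE 0.55, edgeR adjusted p = 0.502), and medium R848-BPD from free R848 by -1.53 (SE 0.76, adjusted p = 0.466). Over the alternatives these differences ran from -1.89 (without free R848 replicate 2) to -0.21 (without saline replicate 1), and from -2.96 (without medium R848-BPD replicate 1) to -0.43 (without free R848 replicate 2), none of them called.

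Clec9a was at 81.5, 22.8 and 107 CPM after saline, 12.05, 24.2 and 35.3 after free R848, and 18.1 and 3.50 after medium R848-BPD. The free R848 tumors overlapped the saline tumors only through saline replicate 2. The log2 difference of medium R848-BPD from saline was -2.51 (SE 0.57, edgeR adjusted p = 0.00885). Without medium R848-BPD replicate 2 it was -2.07 (edgeR adjusted p = 0.0527), and without saline replicate 1 it was -2.48 (adjusted p = 0.0591), so the call needed both tumors. Without medium R848-BPD replicate 1 the difference was -4.29 (adjusted p = 0.0322). For free R848 against saline the difference was -1.60 (SE 0.49, edgeR adjusted p = 0.0982) and was called without the filter on low counts (-1.61, adjusted p = 0.00625). Between the treatments it was -0.90 (SE 0.67, edgeR adjusted p = 0.665).

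The makeup of the DC-like class differed between treatments beside these genes. The cDC1-like cluster took 23.1% of DC-like cells in saline replicate 1, 4 of 25 in replicate 2 and 18.2% in replicate 3, 2.33%, 7.04% and 8.82% after free R848, and 2.65% and 3.13% after medium R848-BPD. Each treated tumor lay below each saline tumor. Means were 19.1% ± 3.65 (n = 3), 6.06% ± 3.36 (n = 3) and 2.89% ± 0.332 (n = 2). A two-sided exact permutation test gave p = 0.1 for free R848 and p = 0.2 for medium R848-BPD against saline, the smallest values that 3 against 3 and 2 against 3 tumors allow. The mature DC-like share went from 24.2% ± 7.57 through 63.1% ± 15.8 to 87.1% ± 0.547, with the same exact p-values. Adjusted over the 27 share comparisons added after seeing the data, all of these p-values became 0.415. Unnamed sub-clusters held 25.6%, 14.5% and 4.79% on average, of which sub-cluster 5, whose highest marker score was that of cDC1, held 15.4%, 11.2% and 4.35%. The threshold that left them unnamed was set after seeing the data. Of the mature DC-like cells, sub-cluster 4 was led by Saa3, Fscn1 and Arg1. It held 9 cells after saline, 18 after free R848 and 37 after medium R848-BPD. With the poor-quality cluster kept, and with classes from all variable genes, a DC-like cluster led by Saa3 was left unnamed. No fit without sub-cluster 4 was run, and its part in the mature DC-like results was not tested.

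**Figure D4:**
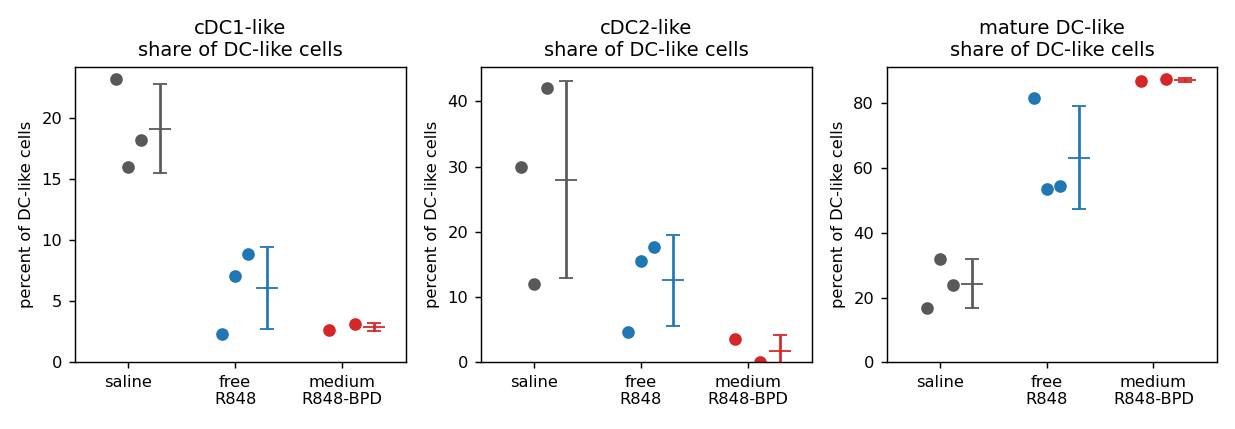
Percent of DC-like cells (y axis) that fell in the cDC1-like, cDC2-like and mature DC-like clusters in each tumor (points) by treatment (x axis), with mean and SD beside them. The cDC1-like share averaged 19.1% in the saline tumors, each of which lay above the highest treated tumor (8.82%).

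As a share of all nonmalignant cells, cDC1-like cells were 3.22%, 0.348% and 1.45% after saline, 0.134%, 0.464% and 0.834% after free R848, and 0.251% and 0.274% after medium R848-BPD. Saline replicate 2, with 4 such cells, lay among the treated tumors. Exact permutation p-values over the 3 pairs of groups were 0.3, 0.2 and 0.6, all at least 0.8 after adjustment over 6 comparisons. The NK-like share was 13.4% ± 4.39 after saline, 10.7% ± 2.04 after free R848 and 11.7% ± 7.98 after medium R848-BPD, where the 2 tumors held 17.3% and 6.03%. None of these differences exceeded the spread, with exact permutation p from 0.4 to 1.0 before adjustment and from 0.8 to 1.0 after it.

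Inside the cDC1-like cluster, the receptor genes were still present after treatment. Only 12 such cells came from free R848 tumors and 5 from medium R848-BPD tumors, against 57 from saline tumors, and no comparison met the requirement of at least 10 cells in 2 tumors of each group. No fit was run, and pooled counts are given with 95% Poisson intervals. Clec9a had 89 UMIs after saline, 16 after free R848 and 9 after medium R848-BPD, which gives 269 CPM (216 to 331), 222 CPM (127 to 360) and 210 CPM (96.2 to 399). Xcr1 had 66, 26 and 8 UMIs, or 200 CPM (154 to 254), 360 CPM (235 to 528) and 187 CPM (80.7 to 368). The intervals of saline and medium R848-BPD overlapped for both genes. Of the 26 Xcr1 UMIs after free R848, 19 came from the 5 cells of replicate 2. Per tumor, the medium R848-BPD counts were 7 and 1 UMIs for Xcr1 and 9 and 0 for Clec9a, in 3 and 2 cells.

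**Figure D5:**
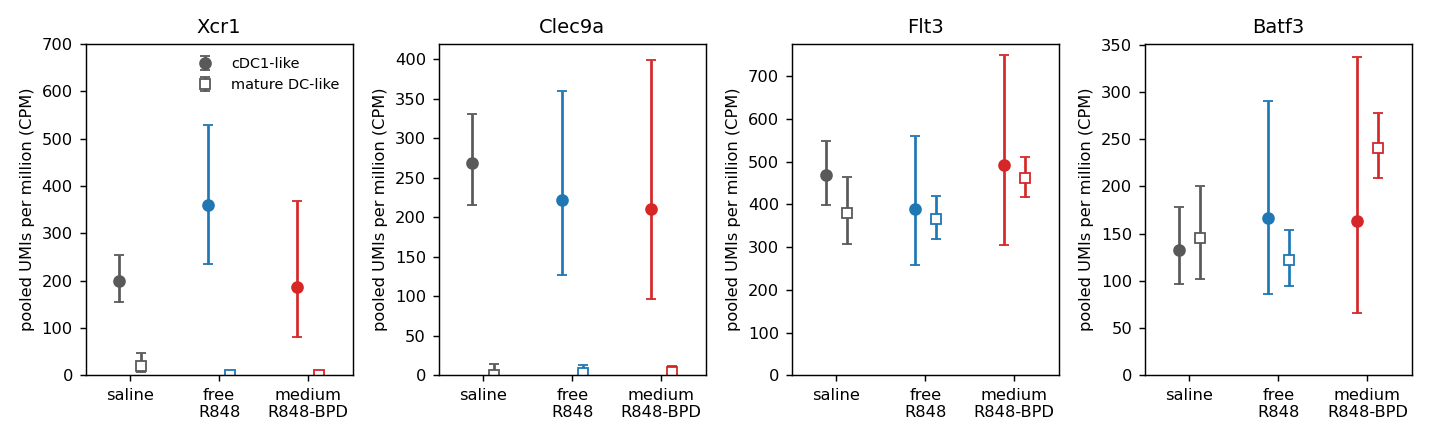
Pooled level in CPM (y axis) of Xcr1, Clec9a, Flt3 and Batf3 in cDC1-like (filled circles) and mature DC-like (open squares) cells by treatment (x axis), with 95% Poisson intervals for counting error only. Clec9a in cDC1-like cells was 269, 222 and 210 CPM with overlapping intervals, whereas Batf3 in mature DC-like cells was 145, 122 and 241 CPM, with 53 of the 154 medium R848-BPD cells in a sub-cluster that held no saline cell.

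No Flt3 difference was called. In DC-like cells it was at 258, 213 and 282 CPM after saline, 277, 336 and 274 after free R848, and 523 and 287 after medium R848-BPD. Both medium R848-BPD tumors were above the saline tumors, replicate 2 only narrowly. The log2 difference of 0.72 (SE 0.26, edgeR adjusted p = 0.0710) was not called. It was called without free R848 replicate 1 (0.73, adjusted p = 0.0434), without medium R848-BPD replicate 2 (1.04, edgeR adjusted p = 0.0424) and without the cDC1-like cells (1.12, adjusted p = 0.0124). Without medium R848-BPD replicate 1 it was 0.22 (edgeR adjusted p = 0.756). In mature DC-like cells alone it was 0.12 (edgeR adjusted p = 0.909). Free R848 differed from saline by 0.24 (SE 0.24, adjusted p = 0.638), and the treatments from each other by 0.47 (SE 0.25, adjusted p = 0.497).

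Batf3 rose in DC-like cells after medium R848-BPD, the group in which Xcr1 and Clec9a fell. In DC-like cells it was at 82.7, 15.2 and 87.6 CPM after saline, 116, 121 and 70.6 after free R848, and 215 and 227 after medium R848-BPD. The medium R848-BPD tumors stood above all others. Batf3 rose by 1.65 on the log2 scale against saline (SE 0.34, edgeR adjusted p = 0.00471), while the differences of 0.53 for free R848 against saline (SE 0.34, adjusted p = 0.439) and 1.12 between the treatments (SE 0.33, adjusted p = 0.133) were not called. Without the filter on low counts the difference between the treatments was called (1.15, edgeR adjusted p = 0.00696). The rise against saline was 2.06 without cDC1-like cells (edgeR adjusted p = 0.00276). In mature DC-like cells alone, with saline replicate 2 dropped for having 8 such cells, it was 0.37 and no longer called (edgeR adjusted p = 0.682). Pooled over tumors, Batf3 in mature DC-like cells was 145 CPM after saline (102 to 201), 122 after free R848 (94.5 to 154) and 241 after medium R848-BPD (209 to 277). Different sub-clusters held these cells in the groups. Sub-cluster 6, led by Htra1 and Fscn1, held 0 of 56 mature DC-like cells after saline, 2 of 110 after free R848 and 53 of 154 after medium R848-BPD, where its pooled Batf3 level was 353 CPM (284 to 434). In sub-clusters 0 and 4 the pooled level was 152 and 46.8 CPM after saline and 268 and 131 after medium R848-BPD, while in sub-cluster 2 it was 216 and 135 CPM, with overlapping counting intervals in each of the 3.

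Batf3 was also seen outside dendritic cells, where it is a less exclusive marker. NK-like cells had 1.55, 2.83 and 3.72 CPM after saline, 7.36, 12.9 and 6.24 after free R848, and 33.3 and 21.2 after medium R848-BPD. These values are a description and rest on few counts, with 7 UMIs in all after saline. Mature DC markers in the NK-like class summed to 1023 to 1234 CPM after saline, 1050 to 1228 after free R848 and 1438 to 1477 after medium R848-BPD. Their part in the NK-like values was not tested. T-like cells had 22.0, 9.497 and 11.2 CPM after saline, 22.0, 18.9 and 25.5 after free R848, and 43.3 and 69.9 after medium R848-BPD, a log2 difference of 1.92 against saline that was not called (SE 0.43, edgeR adjusted p = 0.184). Without the T-like sub-clusters led by other cell types it was 2.67 (adjusted p = 0.661), and with no filter on low counts it was called (1.93, edgeR adjusted p = 0.00293). Mature DC markers in the T-like class summed to 1126 to 1666 CPM after saline and 2121 to 2417 after medium R848-BPD, and their part in the result was not tested. Monocyte/macrophage-like cells ranged from 10.3 to 41.9 CPM with the treatments overlapping.

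Genes most like Xcr1 over the same 15 class and treatment means were Clec9a (r = 0.98), H2-Ob (0.98), Otud5 (0.97), Ildr1 (0.97) and Fam117b (0.97), of 6613 genes compared. Clec9a, itself a member, came first.

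Lists of DC genes place these members in the rest of the class. Because mature DC-like cells were 87.1% of the class after medium R848-BPD and 24.2% after saline, less RNA per cell and fewer cells of a type cannot be told apart in these values. For medium R848-BPD against saline, the counts of list genes stand against 8.56% of all 5605 genes called higher and 7.14% called lower. Of 10 receptors for lymphocyte signals, Cd40 rose (1.15, SE 0.29, edgeR adjusted p = 0.0143) while Csf2ra, Ifngr1 and Ccr1 fell by 1.35, 1.03 and 0.92 on the log2 scale after medium R848-BPD against saline. The list median was -0.57 against 0.00 over all genes. Ccr1 is a receptor for CCL3 and CCL5, and Csf2ra and Ifngr1 receive GM-CSF and interferon gamma. Of 8 signals from dendritic cells to lymphocytes, 4 rose and none fell, with a median of 1.14. These were Il27 (3.38), Ebi3 (1.67), Il15ra (2.40) and Il15 (1.42), with edgeR adjusted p from 0.00182 to 0.0325. IL-27 is formed by the products of Il27 and Ebi3, and IL-15 is presented by its receptor chain to NK cells. Il27 had means of 8.38 CPM after saline and 89.3 after medium R848-BPD.

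The lists that follow are from the same comparison, in which 8.56% of all genes were called higher and 7.14% lower. Of 11 further DC transcription factors, Spib rose by 1.84 and Id2 by 0.96, and none fell, with a median of 0.36. Irf8, the partner of BATF3 in cDC1s, was not called. Of 11 cross-presentation and dead cell sensing genes, 3 rose and 2 fell, with a median of 0.28. The receptors for dead cells Axl and Havcr2 fell by 1.73 and 2.28, while Dnase1l3, Tap2 and Ly75 rose by 2.20, 0.86 and 1.12, Ly75 being named after its values were seen. Of 13 activation-induced genes, 3 rose and 5 fell, with Tnfrsf9 and Dusp1 higher by 2.20 and 1.47 and Nr4a2 and Fosb lower by 2.14 and 2.35. Of 4 signals usually made by lymphocytes, Ccl5 rose by 3.48 and Ccl3 by 2.13. Among 3 tested early-stage NK genes, Il7r rose by 1.39 and Tcf7 by 1.70, and of 4 late-stage NK genes none was called. All of these passed edgeR's adjusted threshold of 0.05. Macrophage markers (10 of 11 listed genes found in the files) summed in the DC-like class to 1299 to 7345 CPM after saline, the highest in replicate 2, 1526 to 2273 after free R848 and 1951 to 2954 after medium R848-BPD. Without saline replicate 2, edgeR still called Axl, Havcr2, Csf2ra and Ifngr1 lower, and the difference of Ccr1 was -0.88 (edgeR adjusted p = 0.0662).

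Fewer of these calls were kept in mature DC-like cells alone. That fit also lacked saline replicate 2, which held too few such cells, so fewer tumors and fewer cells entered it. Of the 22 called list genes other than Batf3 and Ly75 named for medium R848-BPD against saline, 4 kept their call in mature DC-like cells alone, namely Ccl5, Axl, Dnase1l3 and Nr4a2. The direction turned there for Ifngr1 (0.06), Ccr1 (0.72), Il15 (-0.34) and Id2 (-0.30), none of them called. With each tumor left out in turn, 7 of the 22 kept their call throughout, namely Ccl5, Il27, Il15ra, Axl, Havcr2, Tnfrsf9 and Nr4a2, and the calls lost were lost without saline replicate 1 or 3 or either medium R848-BPD tumor, or for Ccr1 and Il15 also without saline replicate 2.

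Free R848 against saline called fewer DC genes, 0.731% higher and 0.517% lower. On the lists these were Ccl5 (2.47, edgeR adjusted p = 0.000994), Cd40 (1.18, adjusted p = 0.0465) and Tap2 (0.86, adjusted p = 0.0473), all higher. Between the treatments 0.696% were called higher and 0.268% lower. The called list genes were Ccl3 (2.97), Tnf (2.04), Il27 (2.76) and Tnfrsf9 (1.57), all higher after medium R848-BPD, and Ly6c2 (-1.45), lower, with edgeR adjusted p from 0.0108 to 0.0446. With each tumor left out in turn, Ccl5 against saline kept its call. Over all 19 alternatives Cd40 kept its call against saline in 6 and Tap2 in 7. Between the treatments the call was kept in 17 of 19 for Ccl3, 15 for Il27, 13 for Tnfrsf9, 13 for Ly6c2 and 12 for Tnf, and each of the 5 was lost without at least 1 tumor. In mature DC-like cells alone, none of the 3 genes called against saline was called. With the filter on low counts, none of the 6 members was called in DC-like cells in either of these comparisons, and without it Clec9a (free R848 against saline) and Batf3 (between the treatments) were called, as given above.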

How the data were processed

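Digital gene expression matrices of 8 MC38 tumors were used. The deposited values are raw UMI counts per gene and cell that the authors made from Seq-Well reads, with bcl2fastq and the mm10 build named in the submitters' processing notes and no normalization. Cells were kept with over 400 and under 10000 genes, under 50000 UMIs and at most 15% mitochondrial counts, and 67 predicted doublets (0.68%, Scrublet in scanpy 1.11.5, expected rate 0.05) were kept in the main result. Cells were clustered in Seurat 5.3.0 (R 4.3.3) with 30 components at resolution 0.8, nonmalignant cells again with 11 components at 1.3, and NK-like, T-like and DC-like cells with 10 at 0.8. The members, the gene lists and related genes (1035 in all) were left out of the clustering of nonmalignant cells. Clusters were named from markers. The requirement of 3 markers in 25% of cells was set after seeing the data.

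Sums of counts over the cells of a class were formed in each tumor that held 10 or more of them, and were tested with edgeR 4.0.16 (quasi-likelihood, TMM factors, filterByExpr, all 3 treatments in 1 fit, Benjamini-Hochberg threshold 0.05). DESeq2 1.42.0 was an alternative. Fitted differences use a log2 scale. Levels are counts per 1e6 UMIs of the class (CPM). Depth differs between tumors, so shares of cells with a UMI were compared after thinning each cell to 1000 UMIs. Shares were compared by two-sided exact permutation tests (scipy 1.17.1). P-values measure the spread between tumors. Intervals and limits (3 counts for a count of 0) cover counting error only, at 95%.

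The 6 members and the 8 lists (86 genes) were chosen with earlier results of these data known. Named list genes were those called in a comparison, at most 4 per list by smallest p. Genes most like Xcl1 and Xcr1 were the 5 with the highest Pearson r of mean log2 CPM (prior count 2), among genes of at least 16 CPM; 1 of those for Xcl1 is not reported here. Alternatives without shared barcodes, without sub-clusters led by other cell types, without cDC1-like cells and in mature DC-like cells alone, and shares of DC-like cells, were added after seeing the data. The scripts were tested on simulated counts.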

Additional observations from a re-analysis of the deposited data

Results flagged for a closer look

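Members and named list genes were screened for opposite directions in 2 cell classes. In 5 cases every tumor of a treatment lay outside the saline range in both classes, in opposite directions. List genes were named because they were called, and the share over all genes was not computed, so nothing is read from this number. The differences between the 2 classes were not tested. Cd40, the receptor for CD40 ligand, was lower in T-like and higher in DC-like cells after free R848 (log2 differences from saline of -1.46 and 1.18, which differ by -2.63) and after medium R848-BPD (-0.72 and 1.15, which differ by -1.88). Most T-like Cd40 UMIs lay in the 2 sub-clusters led by macrophage and mature DC genes, with 54 of 65 after saline, 25 of 28 after free R848 and 44 of 47 after medium R848-BPD. Outside them 11, 3 and 3 UMIs were left, the gene did not pass the filter on low counts, and saline replicate 1 had 0. In mature DC-like cells alone Cd40 differed from saline by 0.43 and 0.13, neither called (edgeR adjusted p = 0.696 and 0.888). Havcr2 was higher in NK-like cells and lower in DC-like cells after medium R848-BPD (0.77 and -2.28, which differ by 3.05). Without the NK-like sub-cluster led by macrophage genes the first was 0.79, and in mature DC-like cells alone the second was -1.64 (edgeR adjusted p = 0.372). Tcf7 after medium R848-BPD was lower in NK-like cells (-1.51) and higher in T-like (1.19) and DC-like cells (1.70), which differ from the NK-like value by -2.70 and -3.21. The T-like difference was not called (edgeR adjusted p = 0.568). Without sub-clusters led by other types Tcf7 differed by -1.51 in NK-like cells and by 1.41 in T-like cells (the latter with edgeR adjusted p = 0.561). In mature DC-like cells alone it differed by 0.034 (edgeR adjusted p = 0.991).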

How the results depend on the processing

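Counts of called genes moved more than the members' differences. In NK-like cells, no filter on low counts gave 41, 233 and 120 genes for free R848 against saline, medium R848-BPD against saline and medium R848-BPD against free R848 (0, 77 and 23 in the main analysis), and fits of only the groups compared gave 1 and 59 for the first and last. In T-like cells (0, 3 and 6), DESeq2 gave 8, 36 and 24, no filter 137, 216 and 241, and the groups compared alone 5 and 1 for the last 2 comparisons. Medium R848-BPD against saline gave 8 with the poor-quality cluster kept and 1 with classes from all variable genes. The comparison of treatments gave 2 without doublets, 1 with classes from all variable genes and 3 without sub-clusters led by other types. In DC-like cells (70, 880 and 54), free R848 against saline gave 116 with DESeq2, 382 with no filter, 10 with the groups compared alone, 249 with the poor-quality cluster kept, 19 without cDC1-like cells and 1 in mature DC-like cells. Medium R848-BPD against saline gave 528 with DESeq2 and 104 in mature DC-like cells, and the comparison of treatments 260 with no filter.

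Replicate numbers are shared between groups in the labels but no label ties the numbers to a shared day or litter. Same-numbered tumors correlated in their deviations from -0.206 to 0.082 in NK-like, -0.161 to 0.080 in DC-like and -0.095 to 0.231 in T-like cells, so not every pair exceeded 0.1, and the numbers were not taken to pair the tumors. In T-like cells 4 of 7 same-numbered pairs exceeded 0.1, against 2 of 14 other pairs, and not every tumor correlated best with its own number. With a replicate block the counts were 0, 61 and 18 in NK-like cells, 12, 51 and 22 in T-like cells and 39, 595 and 16 in DC-like cells. Of the called list genes named in DC-like cells, 1 of 3, 19 of 22 and 2 of 5 were also called with the block, as was Ccl5 in T-like cells. The edgeR adjusted p with the block was 0.109 for Tcf7 in NK-like cells between the treatments and 0.0534 for Xcr1 in DC-like cells after medium R848-BPD.

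Leaving out each tumor gave 0 to 3, 40 to 88 and 7 to 36 genes in NK-like cells, 0 to 1, 3 to 41 and 1 to 57 in T-like cells, and 1 to 123, 290 to 1128 and 12 to 241 in DC-like cells. The highest T-like counts were without medium R848-BPD replicate 1. The lowest DC-like counts were without saline replicate 1, medium R848-BPD replicate 1 and free R848 replicate 3. The NK-like share differed by -4.95 to -0.579, -7.37 to 3.91 and -4.72 to 6.56 percentage points, turning sign against saline for medium R848-BPD without its replicate 2 (3.91) or saline replicate 3 (0.344), and between treatments without medium R848-BPD replicate 1 (-4.72) or free R848 replicate 3 (-0.208). The cDC1-like share differed by -1.86 to -0.420, -2.07 to -0.635 and -0.387 to -0.0364.

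Shares of NK-like cells with an Xcl1 UMI were 62.5%, 49.4% and 15.4% without thinning and 48.8%, 35.9% and 5.78% at 2000 UMIs after saline, free R848 and medium R848-BPD. In T-like cells they were 39.0%, 27.3% and 24.2% without thinning and 28.7%, 20.9% and 11.9% at 2000 UMIs. Directions turned, none of them called, for Flt3l in T-like cells (medium R848-BPD against saline -0.79 without its replicate 1, -0.0764 without saline replicate 2, up to 0.47 without its replicate 2, and -0.0798 with the poor-quality cluster kept, and between treatments from -1.15 to 0.11 over the tumors left out, the last without medium R848-BPD replicate 2, and 0.15 without sub-clusters led by other types), for Flt3 in DC-like cells (-0.0326 for free R848 in mature DC-like cells and -0.0188 to 0.80 between treatments, the first without medium R848-BPD replicate 1) and for Batf3 (-0.56 for free R848 in mature DC-like cells). Ccl5 in T-like cells turned to -0.52 and -0.11 without sub-clusters led by other types, and Ifngr1, Ccr1, Il15 and Id2 to 0.0558, 0.72, -0.34 and -0.30 in mature DC-like cells. The cause of these changes was not tested. Fits in cDC1-like cells were not run, since only 2 tumors, both of saline, held the required 10 such cells. The 11 to 124 Xcl1 UMIs per medium R848-BPD tumor and the 5 cDC1-like cells limit the precision there.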
